A study of Homo sapiens with 4 samples.

Results

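The AP-1 transcription factor is a pair of proteins drawn from the JUN, FOS, ATF and BATF families, and 9 of its subunit genes were followed here: JUN, JUNB, JUND, FOS, FOSB, FOSL1, FOSL2, ATF3 and BATF. They were chosen by name, and every peak that the lists assign to one of these symbols was kept. This gave 34 of 47074 m6A peaks, namely 15 of the 22448 shNC peaks and 19 of the 24626 shALKBH5 peaks. RPMI-8226 cells, an established line from a human multiple myeloma, carried by lentivirus either a hairpin against ALKBH5, an RNA demethylase that removes N6-methyladenosine (m6A), or the hairpin labelled shNC. Poly(A) RNA of each condition was sequenced before (input) and after immunoprecipitation with an anti-m6A antibody (IP), which makes 4 libraries, 1 per kind and condition. The lists hold no RNA levels, so the knockdown of ALKBH5 could not be checked. No value has a replicate, so no test between the conditions was possible, and each difference below is one between 2 pairs of libraries.

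AP-1 subunits pair through a leucine zipper and bind DNA through a basic region: FOS proteins, ATF3 and BATF pair with JUN proteins, which can also pair with each other, and in B and plasma cells BATF binds composite sites with IRF4. FOS and JUN are classical immediate-early genes whose mRNAs appear within minutes of a stimulus and decay fast. m6A is placed on mRNA mostly near stop codons and in long exons, in a consensus with a GGAC core, and antibodies against it also bind m6Am, a related base next to the mRNA cap.

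All 9 genes had a peak in at least 1 list, and 6 (JUN, JUNB, JUND, FOSB, FOSL2 and BATF) had peaks in both. FOSL1 had a peak only in the shNC list, and FOS and ATF3 only in the shALKBH5 list. Of the 12779 symbols with a peak in either list, 83% stood in both, 5.5% in the shNC list only and 11.5% in the shALKBH5 list only. Folds were read as the authors' ratios of IP over input within a peak. The log10 p was read as the log10 of the authors' p for that peak, so that a more negative value is a stronger peak. Both describe a peak within its own list, and a difference between lists in either is no measured change. A partner of a peak is a peak of the other list with at least 1 base in common. By p, JUN genes carried the strongest member peaks, with a log10 p below -10 in 7 of 7 shNC and 7 of 8 shALKBH5 peaks. The FOS genes had such a p in 1 of 6 shNC and 1 of 7 shALKBH5 peaks, both at FOSL2. All members together had it in 9 of 15 and 9 of 19. The JUN gene counts hold a long and a short JUND peak in each list that overlap, by 441 bases for shNC and 383 for shALKBH5. Whether these p values follow the amount of RNA was not tested, because the lists hold no RNA levels. Over all shNC peaks, 56.2% were stronger than -11.9 and 62% stronger than -9.29. Over all shALKBH5 peaks, 42.7% were stronger than -21.1 and 62.9% stronger than -8.66. Folds of 10 or more went the other way, with 1 of 7 shNC and 2 of 8 shALKBH5 peaks of JUN genes. For FOS genes these were 4 of 6 and 4 of 7. Over all shNC peaks, 35.8% had a fold above 9.51 and 24.6% above 12.5. Over all shALKBH5 peaks, 35.9% had a fold above 9.5 and 29.4% above 11. Of the FOS gene peaks, 3 of 6 for shNC and 3 of 7 for shALKBH5 stood at the weakest p that their list gives for their fold.

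Start sites are shown for the members with a peak that reaches the annotated first base by RefSeq (GRCh38.p14), because those letters lie inside the measured regions. Each line holds 20 bases before the start and 30 from it, and capitals mark bases inside the peak.
JUND, chr19:18281593-18281642, minus strand: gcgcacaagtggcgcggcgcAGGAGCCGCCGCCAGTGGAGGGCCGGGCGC
BATF, chr14:75522449-75522498, plus strand: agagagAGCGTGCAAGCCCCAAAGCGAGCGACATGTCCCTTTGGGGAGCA
The JUND peak is in the shALKBH5 list only and begins exactly at the annotated first base. The BATF peak is in both lists with the same 5′ border, 14 bases before the annotated start. The annotated first base of both genes is A, as in 44.4% of 35116 RefSeq windows of this kind. Transcript starts were not measured here, and the BATF peak begins before the annotated one. The letters GGAC did not occur on the sense strand in the first 50 bases of either gene. Only 18.9% of the windows held them there, so most windows lack them too. The JUND peak reaches 90 bases from the start, and the BATF peak 165 (shNC) and 194 (shALKBH5), and these further bases were not searched.

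JUN encodes c-Jun, the founding JUN protein and a strong activator (ENSG00000177606, chromosome 1, 58780791 to 58784047 on the minus strand). JUN, JUNB and JUND have no introns, so their peaks lie in exon sequence. JUN had 3 peaks in each list, and they covered 43.4% of the gene in both. The strongest JUN peak lay toward the gene end and was enriched 52.6-fold at 58781538 to 58782318 for shNC and 17.9-fold at 58781628 to 58782318 for shALKBH5. Its log10 p was -345 in the former and -290 in the latter. In the shNC list only 0.65% of peaks had a higher fold, against 11.9% in the shALKBH5 list, while 4.37% and 5.09% of peaks had a stronger p. By p it was among the strongest peaks of each list, and by fold it stood near the very top of the shNC list.

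A second JUN peak, with its 5′ edge 650 bases from the start in both lists, was enriched 3.45-fold at a log10 p of -25.8 for shNC and 3.8-fold at -21.1 for shALKBH5. The third JUN peak differed in place between the lists. The shNC list had one at 58782617 to 58782797, enriched 3.43-fold at a log10 p of -11.9, whose nearest shALKBH5 neighbour was 89 bases away. The shALKBH5 list had one nearer the start, at 58783517 to 58783727, enriched 2.9-fold at a log10 p of -8.66, and 119 bases separated it from the nearest shNC peak. Neither shared a base with a peak of the other list. Both lay within 200 bp of the other list's version of the shared peak 650 bases from the start.

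**Figure D1:**
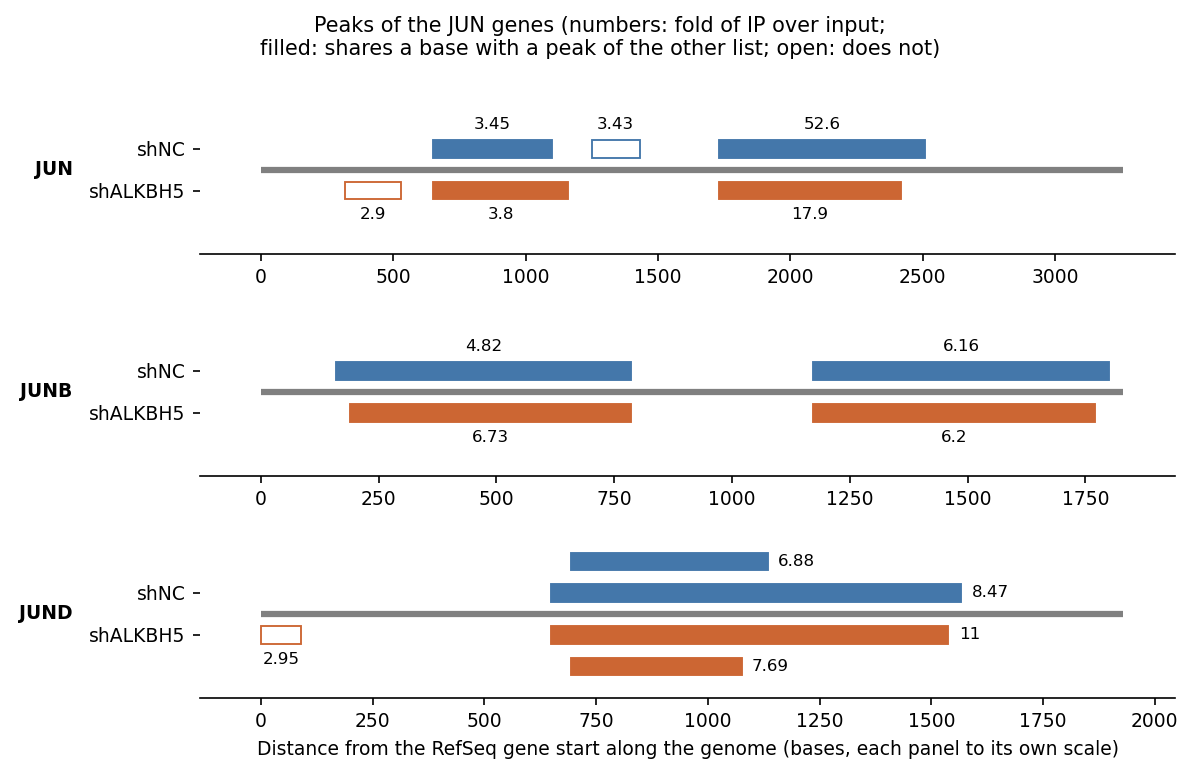
Peaks of JUN, JUNB and JUND by distance from the RefSeq gene start (bases, each panel to its own scale), shNC above and shALKBH5 below the grey gene span, with the fold of IP over input beside each bar. Filled bars share at least 1 base with a peak of the other list. Open bars do not, and they are the shNC JUN peak with a fold of 3.43 and the shALKBH5 peaks of JUN (2.9) and JUND (2.95).

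JUNB, a JUN protein that often opposes c-Jun in growth control (ENSG00000171223, chromosome 19, 12791486 to 12793315 on the plus strand), had 2 peaks in each list, and each shared bases with its counterpart. The peaks covered 68.5% (shNC) and 65.2% (shALKBH5) of the JUNB gene, the largest covered shares among the 9 genes. The JUNB peak near the start, 12791645 to 12792271 for shNC, was enriched 4.82-fold at a log10 p of -112 for shNC and 6.73-fold at -191 for shALKBH5. The JUNB peak at the gene end, 12792659 to 12793285 for shNC, had folds of 6.16 and 6.2 and log10 p values of -371 and -482. JUNB was thus enriched toward both ends of the transcript in both lists, at folds near the middle of each list and at a strong p.

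JUND, the JUN protein most abundant in many resting cells (ENSG00000130522, chromosome 19, 18279694 to 18281622 on the minus strand), had the strongest peak of all members in both lists. The peak at 18280056 to 18280972 had a log10 p of -1660 in the shNC list, where only 69 of all peaks (0.307%) were stronger. Its shALKBH5 counterpart at 18280085 to 18280972 had a log10 p of -1930, with 41 peaks (0.166%) stronger. Their folds were moderate, 8.47 and 11, and 39.8% and 29.4% of the peaks of each list had a higher one. Both lists also held a shorter JUND peak inside the long one, at 18280489 to 18280929 for shNC and 18280547 to 18280929 for shALKBH5, with folds of 6.88 and 7.69 and log10 p values of -1030 and -952. The long and the short peak of a list share 441 bases for shNC and 383 bases for shALKBH5, so the same bases are listed in both peaks.

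The start peak of JUND, printed above, stood in the shALKBH5 list only, at 18281533 to 18281622. Its fold of 2.95 was among the lowest of the members, and its log10 p of -23.9 was the strongest among the 6 shALKBH5 member peaks without a partner. The nearest shNC peak of JUND was 560 bases away. Within the shALKBH5 list, 40% of peaks had a stronger p than this JUND peak and 80.7% a higher fold.

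FOS, the prototype immediate-early gene (ENSG00000170345, chromosome 14, 75278828 to 75282230 on the plus strand), had 1 peak, in the shALKBH5 list only. It spanned 91 bases at 75281181 to 75281271, 959 bases from the gene end, and was enriched 9.5-fold at a log10 p of -4.08. Most of that list was stronger, with 86.1% of peaks at a lower p, and 32 other peaks of the list had the same fold and the same log10 p as this FOS peak. FOSL1, which encodes FRA1, a FOS protein without the strong activation domain of c-Fos (ENSG00000175592, chromosome 11, 65892049 to 65900545 on the minus strand), had 1 peak, in the shNC list only. It lay at 65892558 to 65892797, 509 bases from the gene end, enriched 9.51-fold at a log10 p of -5.98, and 8 other peaks of the shNC list had the same pair of values. FOS and FOSL1 thus had nearly the same fold, each in 1 list alone, at a p weaker than that of most peaks, and both stood at the weakest p that their list gives for that fold.

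FOSB, a FOS protein known for its long-lived short form (ENSG00000125740, chromosome 19, 45467996 to 45475179 on the plus strand), had 2 peaks in each list, in the same places. The FOSB peak near the start was enriched 12.5-fold for shNC (45468383 to 45468473) and 14.5-fold for shALKBH5 (45468353 to 45468473), with log10 p values of -2.99 and -3.54. The FOSB peak further along was enriched 19.6-fold for shNC (45472910 to 45473149) and 13.6-fold for shALKBH5 (45472970 to 45473149), with log10 p values of -5.03 and -3.29. These folds were among the highest of the members while the p values were among the weakest. Each FOSB peak had the weakest log10 p that its list gives for that fold, a pair of values shared with 126 and 65 other shNC peaks and with 161 and 124 other shALKBH5 peaks, in the order start peak and further peak.

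FOSL2, which encodes FRA2, a FOS protein close to FRA1 (ENSG00000075426, chromosome 2, 28392858 to 28417317 on the plus strand), had 3 shNC and 4 shALKBH5 peaks. The strongest FOSL2 peak lay 19394 bases from the start for shNC, at 28412252 to 28412970, and was enriched 19.1-fold at a log10 p of -62.9. In the shALKBH5 list it spanned 28412312 to 28412941 and was enriched 18.2-fold at a log10 p of -72.8. A weak FOSL2 peak just beyond it had folds of 3.39 and 3.8 and log10 p values of -4.03 and -4.66, and its versions in the 2 lists shared 61 bases. It was the only shared peak of the members that lost its partner when an overlap of 50% of both peaks was asked for.

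Near the FOSL2 start, the lists had overlapping peaks, enriched 14.3-fold in shNC (28393415 to 28393624, log10 p -6.8) and 5.88-fold in shALKBH5 (28393475 to 28393654, log10 p -4.14). The shALKBH5 list had a further FOSL2 peak at 28392906 to 28393055, 48 bases from the start, enriched 16.3-fold at a log10 p of -4.32, with no shNC peak within 200 bp. This start peak was weaker by p than 84% of its list.

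**Figure D2:**
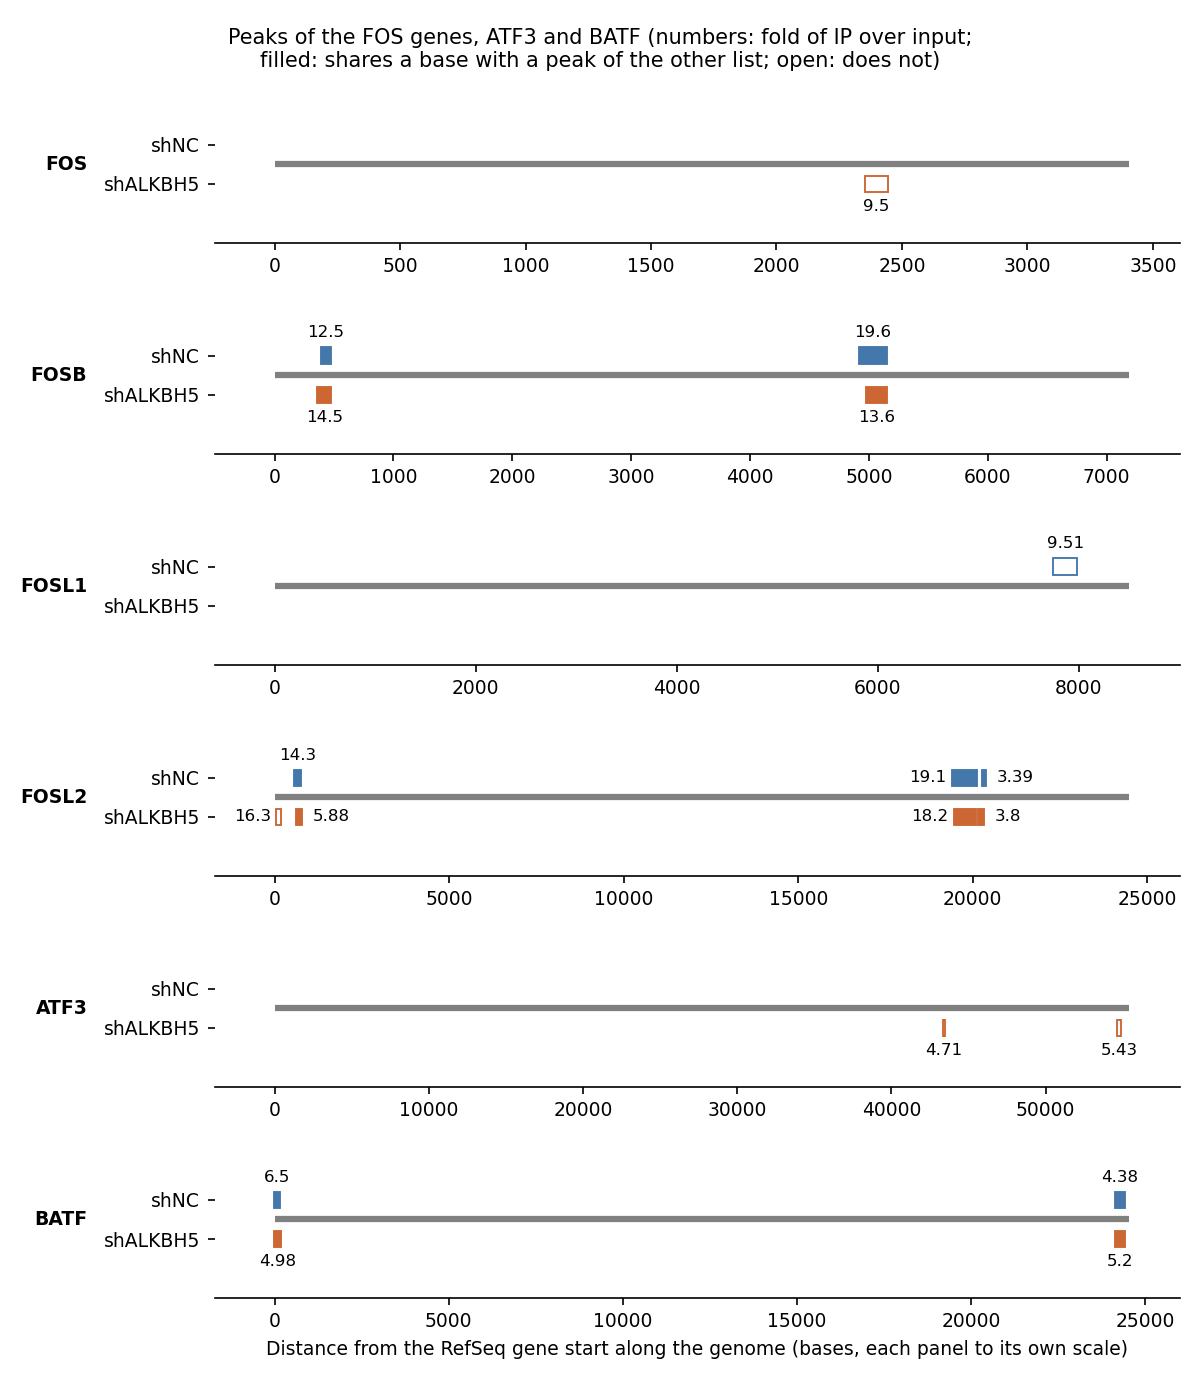
Peaks of FOS, FOSB, FOSL1, FOSL2, ATF3 and BATF by distance from the RefSeq gene start (bases, each panel to its own scale), shNC above and shALKBH5 below the grey gene span, with the fold of IP over input beside each bar. Filled bars share at least 1 base with a peak of the other list and open bars do not: FOSB and BATF have only filled bars, and FOS, FOSL1 and ATF3 only open ones.

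ATF3, a stress-induced subunit that represses many of its targets (ENSG00000162772, chromosome 1, 212565407 to 212620777 on the plus strand), had 2 peaks, both in the shALKBH5 list only. The first ATF3 peak, at 212608777 to 212608867, was enriched 4.71-fold at a log10 p of -3.57. It lay 43370 bases from the start of the RefSeq span and upstream of a further annotated ATF3 start at 212615018. The second, at 212620029 to 212620268, lay 509 bases from the gene end and was enriched 5.43-fold at a log10 p of -5.21. Both ATF3 peaks were in the weaker part of the list, with 90.6% and 77.9% of its peaks stronger by p.

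BATF, a small subunit with a leucine zipper and no activation domain (ENSG00000156127, chromosome 14, 75522469 to 75546992 on the plus strand), had 2 peaks in each list and no peak without a partner. The BATF peak at the gene end, 75546600 to 75546896, had identical borders in both lists, the only such pair among the members. Its folds were 4.38 for shNC and 5.2 for shALKBH5, with log10 p values of -72.2 and -89. The BATF start peak, whose first letters are printed above, had folds of 6.5 and 4.98 and log10 p values of -9.29 and -7.81. BATF thus had peaks at both ends of a gene of 24524 bases, with the stronger p at the end in both lists. By p, 62% of shNC and 65.5% of shALKBH5 peaks were stronger than the BATF start peak. Whether that start peak holds m6A or m6Am was not tested.

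**Figure D3:**
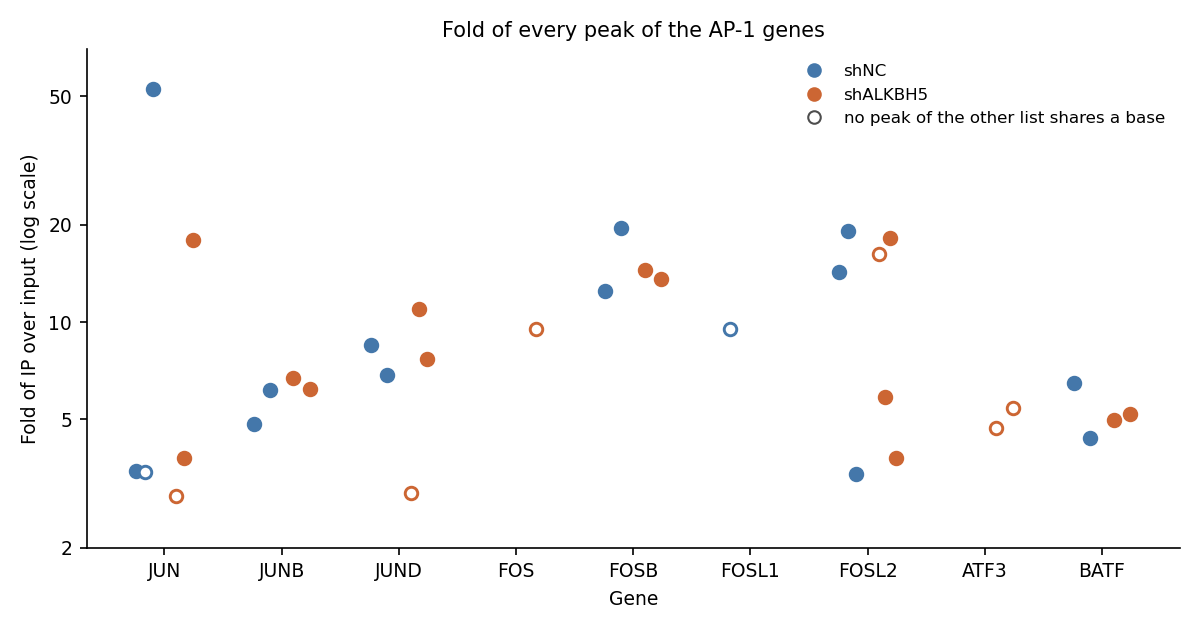
Fold of IP over input (log scale) of each peak of the 9 genes, shNC in blue and shALKBH5 in orange, with open circles for peaks that share no base with a peak of the other list. The shNC JUN peak at 52.6 stands highest, and no peak has an error bar because each list comes from 1 IP and 1 input library.

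The next comparison asked which member peaks were found in both conditions. Of the member peaks, 13 of 15 for shNC and 13 of 19 for shALKBH5 had one. The shNC list held 2 member peaks without a partner (13.3%, exact binomial 95% interval 1.66 to 40.5%), at JUN and FOSL1, beside 12.6% of all shNC peaks. The shALKBH5 list held 6 (31.6%, 12.6 to 56.6%), at JUN, JUND, FOS, FOSL2 and, with 2, ATF3, beside 19.8% of all shALKBH5 peaks. The intervals cover counting error only, peaks of a gene are not independent, and both hold the share over all peaks.

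Peaks without a partner were the weak ones in general. Among all peaks with a log10 p of -10 or weaker, 29.8% for shNC and 44% for shALKBH5 had no partner, against 1.24% and 3.23% of the peaks below -10. The shALKBH5 list had 10 such weak member peaks, of which 5 were without a partner (JUN, FOS, FOSL2 and both of ATF3), and the shNC list had 6, of which 1 was (FOSL1). Below -10 there was 1 member peak without a partner in each list, at JUND for shALKBH5 and at JUN for shNC. The JUN peak, at -11.9, lay close to that limit, and most peaks of the class were stronger.

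**Figure D4:**
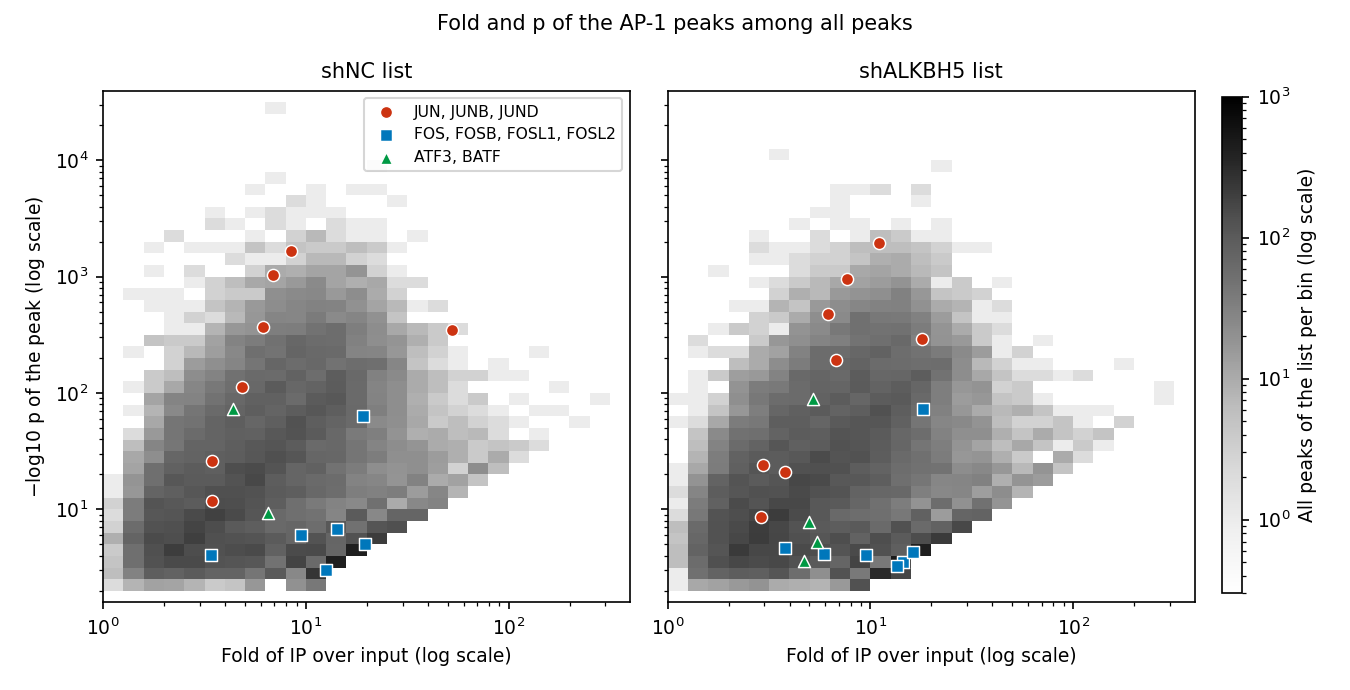
Fold of IP over input against −log10 p (both log scales) for all peaks of each list (grey, peaks per bin on a log scale) and for the members (red circles JUN genes, blue squares FOS genes, green triangles ATF3 and BATF). JUN gene peaks reach a log10 p of -1660 and -1930 at moderate folds, and FOSB peaks lie on the lower edge, where each fold has its weakest p.

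By place, 3 of 15 shNC member peaks (JUNB, FOSB and BATF) and 6 of 19 shALKBH5 member peaks (the same genes with JUN, JUND and FOSL2) had their 5′ edge at the gene start, taken as any place before the RefSeq start or within its first 500 bp. Over all placed peaks these shares were 11.4% and 14.5%. Of these start peaks, 0 for shNC (0 of 15 member peaks, upper limit 21.8%) and 3 for shALKBH5 (15.8% of 19, 3.38 to 39.6%) had no partner, beside 1.55% and 5.19% of all placed peaks. The 3 were the peaks of JUN, JUND and FOSL2 given above. Member peaks less than 1000 bp from the gene end numbered 6 for shNC (40%, 16.3 to 67.7%) and 7 for shALKBH5 (36.8%, 16.3 to 61.6%), beside 23% and 22.1% of all placed peaks. In each list 2 of these are the nested JUND peaks, and JUNB and JUND span only 1830 and 1929 bases, most of which the start and end windows cover. JUNB and BATF had peaks at both start and end in both lists, and JUN and JUND in the shALKBH5 list only, beside 6.85% of genes for shNC and 9.14% for shALKBH5.

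The 13 shared pairs have 26 borders, of which 11 were identical and the others differed by 29 to 120 bases. These differences lay at or near multiples of 30 bases, so borders may move in steps, which was not tested. Both borders were identical in 1 of the 13 pairs, beside 14.4% of all shNC and 14.3% of all shALKBH5 peaks with a partner. All 34 member peaks were a single block, beside 82.6% of all shNC and 82.1% of all shALKBH5 peaks. The JUN genes have no introns, so their 7 shNC and 8 shALKBH5 peaks could not span a splice junction.

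Transcription of JUN is known to respond to AP-1 itself. The RefSeq start windows (250 bases before to 50 after a start) of 8 members, with 9 windows in all, were searched on both strands for the AP-1 site TGACTCA and for the related site TGACNTCA. Either was found in 1 window each of 4 of the 8 members, thus in 4 of the 9 windows, beside 12.1% of all 35116 windows. TGACTCA alone occurs in 4.95% and TGACNTCA in 7.72% of the windows. The matches are shown with 11 bases on each side and the site in capitals, because they show which members carry the letters of either site. TGACTCA was found in 1 member, FOSL2, and TGACNTCA in the 3 others.
JUN, 67 bases before the start, chr1:58784096-58784125, minus strand: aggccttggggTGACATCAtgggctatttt
JUND, 200 bases before the start, chr19:18281804-18281833, minus strand: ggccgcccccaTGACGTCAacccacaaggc
ATF3, 123 bases before the start, chr1:212565273-212565302, plus strand: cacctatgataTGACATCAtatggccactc
FOSL2, 4 bases after the first base, chr2:28392851-28392879, plus strand: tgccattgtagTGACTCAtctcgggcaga
The FOSL2 match lies inside the annotated transcript, before the start peak of the shALKBH5 list. The others lie upstream of the annotated start and outside the members' peaks. A match is a stretch of letters and not a measured binding site.

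Other genes around AP-1 were described by counts from lists of further dimer partners, regulators and genes induced together with FOS and JUN. Genes of these lists are named by the larger of their highest folds in the 2 lists, and the values given are the highest fold in each list, which need not belong to the same site. Of 13 further dimer partners, both lists held peaks of 8, the shNC list alone of 2 (ATF2 and MAFA), the shALKBH5 list alone of 0, and neither of 3. By that order the first partners were the small MAF genes MAFK (29.2 for shNC and 17.3 for shALKBH5) and MAFF (17.8 and 21.7), JDP2, a repressor that pairs with JUN proteins (16.2 and 11.3), and MAFA (13.4 for shNC). The MAFF folds stood at a weak log10 p of -4.52 and -5.62, and the MAFA fold at -3.25. Their peaks without a partner numbered 4 of 19 for shNC, beside 12.6% of all peaks of that list, and 2 of 18 for shALKBH5, beside 19.8%. These are small counts, and their difference from the members was not tested.

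Of 19 regulators, 15 had peaks in both lists. First by the larger fold were MAP2K7, a kinase that activates JNK (90.1 for shNC and 109 for shALKBH5), FBXW7, the ubiquitin ligase subunit that targets c-Jun (85.3 and 22.2), the kinase MAPK3 (9.81 and 71.5), and SRF, the factor that drives FOS transcription (13.4 and 31.7). In the shNC list alone MAPK10, ELK4, MAP2K4 and MAP3K1 had higher folds than SRF and MAPK3. For FBXW7 the folds given above stood at log10 p values of -138 (shNC) and -11.6 (shALKBH5), and for SRF at -3.25 and -8.55. For MAPK3 they stood at -7.32 and -23.1. Regulators had 1 of 32 shNC peaks without a partner, at IRF4, and 7 of 40 shALKBH5 peaks, beside the same 12.6% and 19.8% of all peaks. Start peaks without a partner made up 4 of these 40 shALKBH5 regulator peaks, beside 5.19% of all placed shALKBH5 peaks. Of 16 co-induced immediate-early genes, 12 had peaks in both lists and 4 in neither, with 1 of 21 shNC and 3 of 23 shALKBH5 peaks without a partner, 0 of these at gene starts, beside the same shares of all peaks. The orphan receptor gene NR4A2 (11.6 for shNC and 40.7 for shALKBH5), MYC (22.9 and 21.1), IER2 (17 and 18.1) and KLF6 (17.4 and 13.2) came first by the larger fold, NR4A2 through its shALKBH5 value. The NR4A2 folds stood at log10 p values of -6.87 and -11.2, both weaker than the list medians of -15.8 and -15.3. Those of MYC stood at -9930 and -9990.

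The lists give peaks and no expression levels, so a gene without a peak may have too little RNA for one or no m6A, and these cannot be told apart. Plasma cell markers had peaks in 6 of 10 genes (SDC1, CD38, PRDM1, XBP1, IRF4 and MZB1), all in both lists, and TNFRSF17, JCHAIN, SLAMF7 and FCRL5 had none. Of the markers of other cells, 1 of 8 T and NK cell genes, 2 of 8 myeloid genes and 2 of 7 stromal or endothelial genes had a peak in either list. The median fold of the member peaks was 6.88 for shNC and 6.2 for shALKBH5, beside 6.54 and 6.64 for all peaks. Their median log10 p was -25.8 and -8.66, beside -15.8 and -15.3 for all peaks.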

How the data were processed

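Peak lists of RPMI-8226 cells with shNC or shALKBH5 were analysed, each made from 1 IP and 1 input library. Tools in the submitters' processing notes, given there without a role, are BWA 0.7.12, fastp 0.19.11 and HOMER 4.9.1, and the genome build is hg38. Which program called the peaks, how IP was scaled to input and whether libraries kept strand are not stated in the sources used. The authors deposited for each peak its blocks and columns headed as a fold enrichment, a score, and logs of p and of the FDR. The fold was read here as the ratio of IP over input, the score as p, and the logs as log10. The deposited FDR column holds a spreadsheet error in 1079 shNC and 1109 shALKBH5 cells, 4 and 3 of them at members, so log10 p was used for ranks. Read counts and depths are unknown.

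Peaks of the 9 genes were taken by the authors' symbol. Starts were written from 1, since single blocks are as long as end minus start. Partners shared at least 1 base of their blocks, strand ignored. Gene positions and start windows came from RefSeq on GRCh38.p14, the assembly of hg38; exon and UTR borders were not used here, and FOSL1 had no start window. With the strand of the libraries not stated, reads of a gene and of an antisense partner cannot be separated. All 9 members are named, and of each further list the genes with the highest folds (up to 4) and those behind small counts or set beside the named ones, the latter chosen after their values were seen. The values of 1 regulator are not reported here. The members and lists were chosen with earlier results of these data known. Python 3.11.15, pandas 2.3.3, numpy 2.4.6, SciPy 1.17.1 and matplotlib 3.10.9 were used, and partner calls and distances were tested on simulated data. Alternatives changed the overlap, the strand, the fold, p and length limits of the lists, the merging of peaks and the width of the start.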

Additional observations from a re-analysis of the deposited data

How the results depend on the processing

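Of 48 recomputed counts of member peaks or genes, 37 stayed within 1.5 times the reported count and 11 moved. With only peaks of a log10 p below -10, member peaks fell to 9 in each list, those without a partner to 1 in each list, start peaks without a partner to 1 for shALKBH5, and genes in 1 list alone to 0 in each. With as many shALKBH5 as shNC peaks kept, in order of p, the last at a log10 p of -3.54, both shALKBH5 FOSB peaks dropped out, and the shNC list had 4 member peaks without a partner, 1 of them at a start, and 2 member genes of its own. The FOSB start peak has that same log10 p and ties with other peaks, so its loss depended on the order of ties. Each of these shNC counts, of peaks, start peaks and genes, rests in part on that loss. With partners allowed within 200 bp, 1 shNC member peak was without one, at FOSL1. The shALKBH5 count without a partner was 5 to 7 under the other alternatives. No paired analysis was possible because each kind of library has 1 sample per condition. Unknown depth and single libraries limit every count.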
